A study of Mus musculus with 6 samples.

Results

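The metalloproteinases examined here were the matrix metalloproteinases (MMPs), the ADAM and ADAMTS proteases and their tissue inhibitors, the TIMPs. Members were the probe sets whose single gene symbol on the array platform began with Mmp or Adam and a number, or was Adamts with a number or Timp1 to Timp4, a rule that used no measured value. This gave 107 of 45141 probe sets and 61 of 17097 genes with 1 symbol: 18 MMP, 14 ADAMTS, 26 ADAM and 3 TIMP genes. The study set fibroblasts derived from mouse embryonic stem cells in which CD98hc, the heavy chain of a family of amino acid transporters, had been deleted (CD98hc KO) against wild type (WT) fibroblasts of the same kind, to learn what the transporter does for cell growth. Both groups were cultured in high glucose DMEM with FBS and β-mercaptoethanol, a reducing agent, and total RNA was hybridised to Affymetrix arrays, 3 labelled CD98hc KO and 3 labelled WT, numbered 1, 3 and 5 under each label. The sources used here give neither the strain and age of the source embryos nor the number of clones. They also do not state whether the arrays of 1 label stand for separate cultures, and the p-values below then reflect only the spread between these arrays.

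The active enzymes among them hold a zinc ion in the active site, and they are made as inactive proenzymes. A few ADAMs lack a working protease site. Secreted MMPs cut collagens, gelatin, laminins and other matrix proteins, membrane-type MMPs do so at the cell surface, ADAMTS enzymes cut proteoglycans and procollagens, and ADAMs shed the outer parts of membrane proteins such as growth factor precursors, Notch and cadherins. TIMPs block the active site, and fibroblasts are a main source of both the enzymes and the inhibitors in connective tissue. One pathway joins 3 of the members: MMP14 on the cell surface holds TIMP2, which in turn holds the proenzyme of MMP2 for a neighbouring MMP14 to activate.

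The labels were checked before the members were read. Expression is given on the log2 scale as deposited, where 1 unit is a 2-fold change, and a gene is termed called, higher or lower if limma's adjusted p was under 0.05 and the groups differed by more than 2-fold. Slc3a2 encodes CD98hc and read 11.65, 11.57 and 11.54 on the KO-labelled arrays, against 10.64, 10.67 and 10.51 on the WT-labelled arrays. Its signal was above that of the WT-labelled arrays on each KO-labelled array (log2 fold change 0.98, SE 0.0747, adjusted p = 0.000125), just short of the 2-fold limit and against the label. A single probe set was named for the gene, and the sources used here do not say where it lies relative to the deletion. The KO label went with higher values of 11 out of 11 pluripotency markers, and the log2 of their summed level lay between 14.58 and 14.77 on these arrays, against 8.51 to 8.96 on the WT-labelled arrays. Among 13 fibroblast markers 0 were higher and 8 lower under the KO label (8 of 13, against 10.1% of all genes), with summed levels of 10.79 to 11.25 on the KO-labelled arrays and 13.87 to 14.39 on the WT-labelled arrays. The largest falls among the fibroblast markers were in S100a4 (log2 fold change -7.02), Col3a1 (-6.89), Col1a1 (-5.72) and Prrx1 (-4.47). Of the uncalled markers, Dcn and Thy1 averaged 5.04 and 4.89 on the KO-labelled arrays and 5.40 and 4.52 on the WT-labelled arrays. Thy1 was thus somewhat higher under the KO label (log2 fold change 0.37, adjusted p = 0.030 from limma). The uncalled Pdgfra, Lum and Postn averaged 4.25, 4.20 and 4.91 on the KO-labelled arrays and 4.50, 4.17 and 4.89 on the WT-labelled arrays. The median of the 23 nonspecific probe sets of the array was 4.23, which Pdgfra and Lum were near and Postn somewhat above. Of 8 epithelial markers, 8 were higher under the KO label, at summed levels of 11.55 to 12.19, against 7.82 to 7.99 under the WT label. Of 6 primitive endoderm markers 2 were lower, Gata6 and Dab2, with a summed level of 7.35 to 7.55 on the KO-labelled arrays and 9.87 to 10.05 on the WT-labelled arrays. Of 4 trophoblast markers 1 was higher, Tfap2c, with a summed level of 7.65 to 8.79 on the KO-labelled arrays and 6.63 to 6.83 on the WT-labelled arrays. Macrophage, endothelial and smooth muscle markers had 0 called of 8, 6 and 4 genes. For these reasons every array is named by its label below, and what cells of these other types contributed to any member's value was not tested.

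Values correlated at 0.991 to 0.994 between arrays of 1 label and at 0.911 to 0.92 between arrays of different labels. The 9 hybridisation control probe sets were lower by 1.16 log2 units on the replicate 3 arrays of both groups than on replicates 1 and 5. With the replicate 3 arrays as a covariate, and without those arrays, the same members were called as in the fit of all arrays. Arrays have no depth in reads, and their number limits the precision.

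Promoters of member genes are shown first. Those of the measured Mmp genes on chromosome 9, none of which was called, differ in their letters from those found for members called lower. Windows of 300 bases (250 before to 50 after each RefSeq start) were found for 35 of the 61 genes, 40 windows in all, in assembly GRCm38.p6. They were searched on both strands for TGANTCA, the letters bound by AP-1, for TATAAA, the TATA box, and for GGGCGG, the GC box bound by SP1, and 0 windows held overlapping matches. The Mmp genes on chromosome 9 lie side by side in RefSeq, in the order Mmp13, Mmp12, Mmp1b, Mmp3, Mmp1a, Mmp10, Mmp8, Mmp27, Mmp20 and Mmp7, with no other protein-coding gene among these 10, and 9 of them were measured. Below are the 250 bases before the start of 3 of these cluster genes and of 3 genes elsewhere whose RNA differed between the groups, 5′ to 3′ on the gene's strand, with the matches in capitals. They are from chr9:7272264-7272513 (plus strand) for Mmp13, chr9:7445572-7445821 (plus) for Mmp3, chr9:7502092-7502341 (plus) for Mmp10, chr11:118355412-118355661 (minus) for Timp2, chr14:54431348-54431597 (plus) for Mmp14 and chr1:63445641-63445890 (plus) for Adam23.
Mmp13: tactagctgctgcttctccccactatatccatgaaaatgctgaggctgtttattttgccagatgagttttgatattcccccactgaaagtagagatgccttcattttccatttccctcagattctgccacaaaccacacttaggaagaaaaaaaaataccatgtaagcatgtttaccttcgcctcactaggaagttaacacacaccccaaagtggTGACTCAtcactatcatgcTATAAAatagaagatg
Mmp3: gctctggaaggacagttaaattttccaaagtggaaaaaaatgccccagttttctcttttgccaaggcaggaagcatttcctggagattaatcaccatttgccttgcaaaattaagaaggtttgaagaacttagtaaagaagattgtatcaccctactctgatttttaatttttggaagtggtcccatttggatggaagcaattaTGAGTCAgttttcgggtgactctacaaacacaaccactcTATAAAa
Mmp10: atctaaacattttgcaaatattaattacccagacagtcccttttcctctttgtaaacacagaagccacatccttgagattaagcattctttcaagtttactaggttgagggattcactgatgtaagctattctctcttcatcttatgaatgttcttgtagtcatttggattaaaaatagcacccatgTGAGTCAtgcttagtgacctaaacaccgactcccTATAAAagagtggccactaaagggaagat
Timp2: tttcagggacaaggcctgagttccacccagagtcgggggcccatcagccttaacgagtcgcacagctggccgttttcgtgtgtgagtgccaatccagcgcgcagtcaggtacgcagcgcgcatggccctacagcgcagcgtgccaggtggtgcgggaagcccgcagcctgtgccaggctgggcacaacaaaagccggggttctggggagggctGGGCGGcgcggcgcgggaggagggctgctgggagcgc
Mmp14: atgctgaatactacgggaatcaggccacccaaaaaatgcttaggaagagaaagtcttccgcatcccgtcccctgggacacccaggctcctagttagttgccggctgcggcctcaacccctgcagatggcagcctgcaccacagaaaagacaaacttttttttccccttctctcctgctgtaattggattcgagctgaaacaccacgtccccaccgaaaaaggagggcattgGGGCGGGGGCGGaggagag
Adam23: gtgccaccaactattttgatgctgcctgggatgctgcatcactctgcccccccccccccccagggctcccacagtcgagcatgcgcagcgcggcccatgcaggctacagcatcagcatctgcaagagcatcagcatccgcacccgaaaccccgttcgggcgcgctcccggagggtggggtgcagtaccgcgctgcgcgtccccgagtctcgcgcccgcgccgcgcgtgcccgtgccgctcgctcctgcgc

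In the 3 cluster promoters shown, AP-1 letters stood upstream of a TATA match close to the start. The leftmost base of the AP-1 match was at -35 in Mmp13, -46 in Mmp3 and -63 in Mmp10, and that of the TATA match at -16, -7 and -29, counted from the start. Over the cluster, 8 of 11 windows (72.7%) held AP-1 letters and 9 (81.8%) a TATA box, against 7.81% and 13.6% of all 32851 RefSeq windows of the same length. The AP-1 letters were found in 8 of the 9 measured cluster genes and not in Mmp8. The TATA match of Mmp12 began after the start, at 4, and that of Mmp8 at -3. A GC box was found in 0 of the 11 cluster windows, and their median number of CpG dinucleotides was 1, against 7 over all windows. The 29 windows of 26 members elsewhere were mixed, with a GC box in 17 (58.6%, against 35.7% of all windows), AP-1 letters in 3, a TATA box in 2 and 0 to 44 CpG (median 19). Among the 10 members that were called lower and had a window, all 10 held a GC box and 0 held AP-1 letters, with a median of 24.5 CpG. The other members called lower, Mmp2 and Mmp19 among them, had no window. GC boxes were not counted over all genes called lower, so whether this share is particular to the members was not tested. The 3 of 4 members called higher that had a window had 5 in all, of which 2 held a GC box and 1 AP-1 letters (median 11 CpG). Of the 14 windows of uncalled members outside the cluster 5 held a GC box (35.7%, the same share as over all windows) and 2 AP-1 letters (median 13 CpG). Timp2 held the GC box at -37 and Mmp14 a pair of adjoining ones at -19 and -13, while Adam23 held none of the searched letters. These are matches of letters in a window and were not tested for binding. Neighbouring Mmp genes are copies of each other and not independent.

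**Figure D1:**
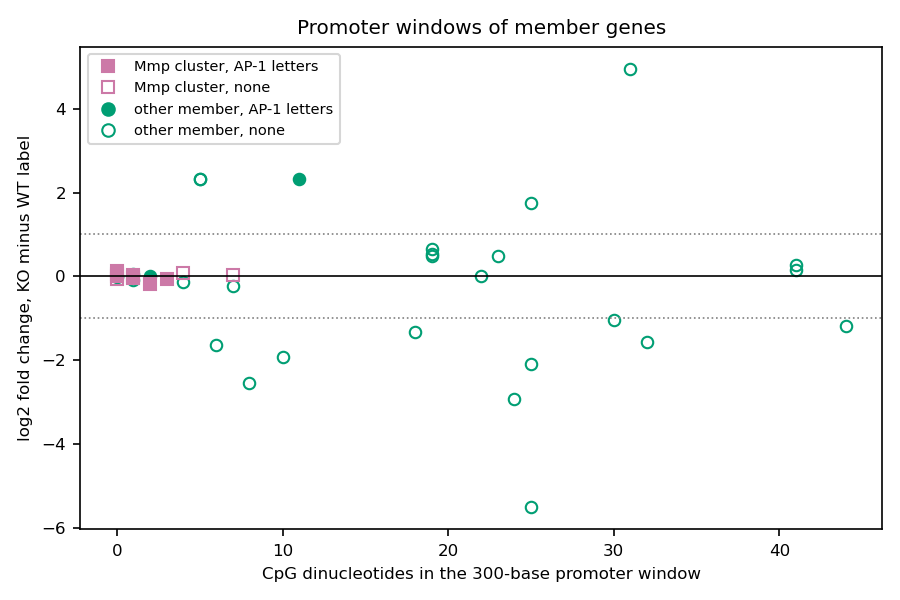
Each point is a promoter window of a member gene, with the number of CpG dinucleotides in its 300 bases on the x axis and the gene's log2 fold change (KO-labelled minus WT-labelled arrays) on the y axis. Filled points hold the AP-1 letters and dotted lines mark a 2-fold change. The 11 windows of the Mmp cluster (squares) hold 0 to 7 CpG and lie near a fold change of 0, while windows of other members (circles) hold 0 to 44 CpG and span fold changes of -5.51 to 4.95.

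Between the labels, members that differed were mostly lower on the KO-labelled arrays. Read from the most variable probe set of each gene, 21 of the 61 member genes (34.4%) were called, against 19.4% of all 17097 genes. Under the KO label 4 members (6.56%) were higher and 17 (27.9%) lower, against 9.27% higher and 10.1% lower of all genes. The median log2 fold change over the 61 members was -0.0035, against 0.0183 over all genes, since most members outside the called ones were close to 0. In each of the 21 called members the 3 KO-labelled arrays did not overlap the 3 WT-labelled arrays. With 3 arrays per label the call itself makes this likely, so it adds no support. Without regard to the call, the groups were apart in 31 of 61 members and in 8798 of 17097 genes. The group means of 12 members (19.7%, against 8.87% of all genes) were below the nonspecific median on the arrays of either label. As these are bulk samples, fewer cells of a type and less RNA per cell cannot be told apart.

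**Figure D2:**
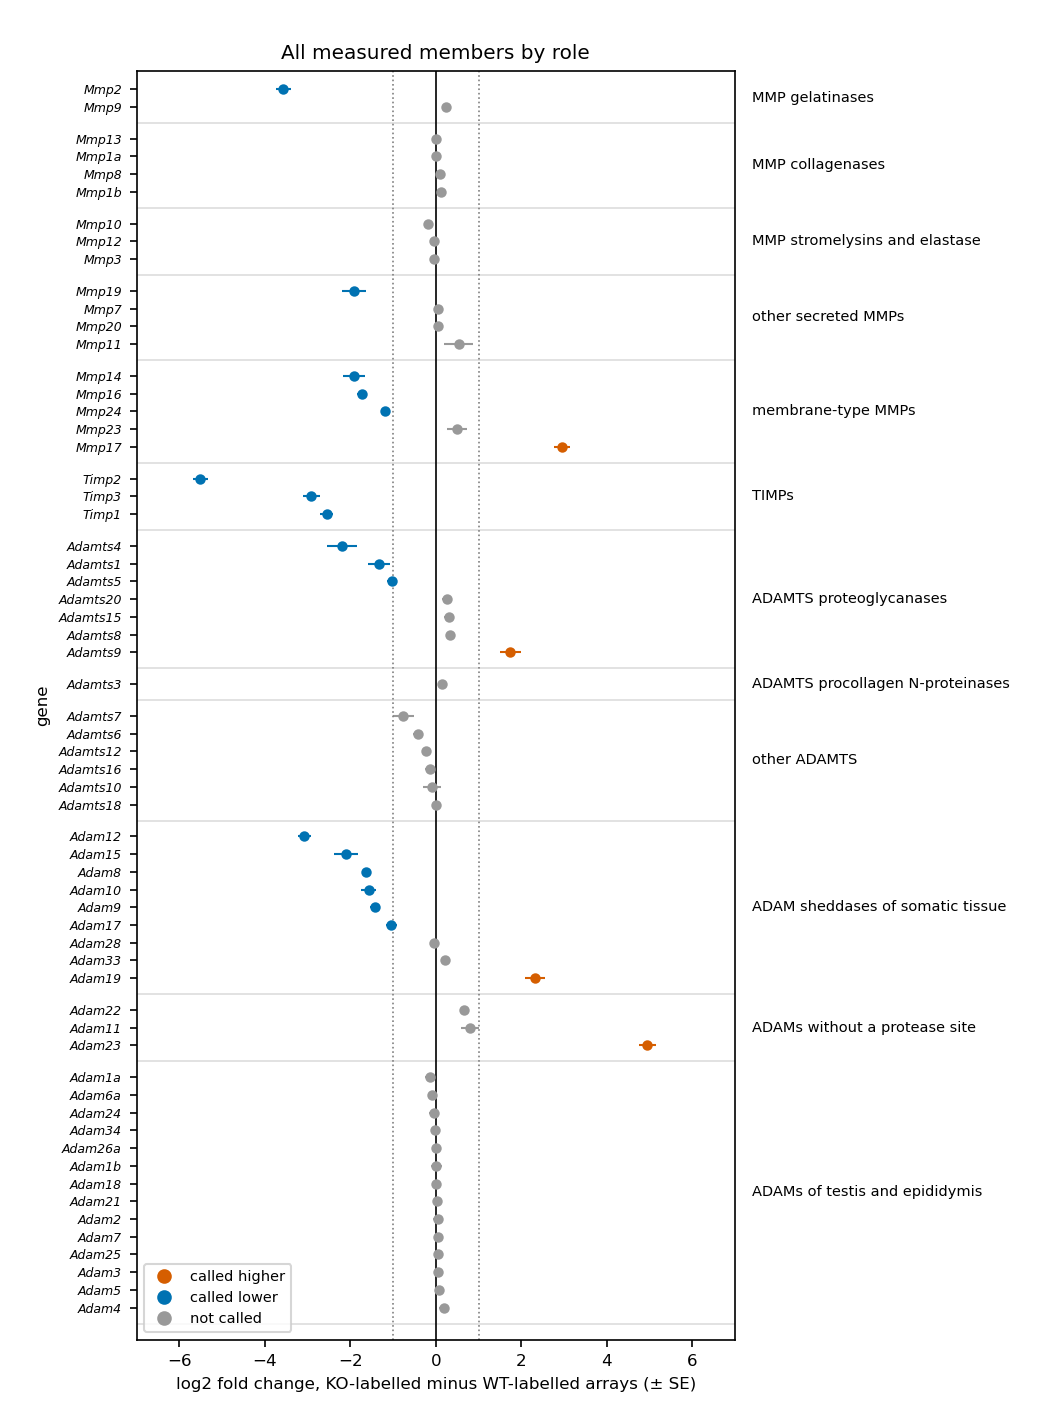
The x axis is the log2 fold change (KO-labelled minus WT-labelled arrays, bars ± SE of the limma fit) of each of the 61 member genes, listed by role on the y axis. Dotted lines mark a 2-fold change in either direction. The 3 TIMPs and 6 of 9 somatic ADAM sheddases lie to the left of the 2-fold line, and the 14 ADAMs of testis and epididymis lie between -0.13 and 0.19.

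All 3 measured TIMPs were lower on the KO-labelled arrays, against 10.1% of all genes. Timp2, the inhibitor that also carries the MMP2 proenzyme to MMP14, had log2 values of 5.44, 5.48 and 5.71 on the KO-labelled arrays, against 10.86, 10.85 and 11.43 on the WT-labelled arrays. Its log2 fold change of -5.51 (SE 0.176, adjusted p = 4.3e-06) was the lowest of all members, and the lowest WT-labelled array stood 5.14 units above the highest KO-labelled one. The other 4 probe sets of Timp2 gave -4.66 to -5.10, so all 5 were called lower. Timp3, which is bound to the matrix and also inhibits ADAM17 and ADAMTS enzymes, had 5.47, 5.47 and 5.45 on the KO-labelled arrays, against 7.95, 8.40 and 8.79 on the WT-labelled arrays (log2 fold change -2.92, SE 0.200, adjusted p = 8.1e-05). The KO-labelled arrays were nearly equal, the WT-labelled ones spread over 0.84 log2 units, and the other 3 probe sets gave -1.46 to -1.80, all called lower. Timp1, an inhibitor induced by serum and cytokines, had 8.13, 7.96 and 8.45 on the KO-labelled arrays, against 10.85, 10.80 and 10.55 on the WT-labelled arrays (log2 fold change -2.55, SE 0.148, adjusted p = 4.1e-05). On the KO-labelled arrays its values were still well above the nonspecific median. Timp1 and Timp3 lie inside introns of the synapsin genes Syn1 and Syn3, and of the synapsins Syn1, Syn2 and Syn3 0 of 3 were called (median log2 fold change 0.09). Pluripotency, epithelial and fibroblast markers moved between the same arrays, by the amounts given above, and their part in the TIMP values was not tested.

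Of 13 secreted MMPs, 0 were called higher and 2 lower. These are 15.4% called, near the 19.4% of all genes. Mmp2, the gelatinase that cuts denatured collagen and basement membrane collagen, had 7.11, 7.63 and 7.01 on the KO-labelled arrays, against 10.59, 10.92 and 10.94 on the WT-labelled arrays. The log2 fold change was -3.56 (SE 0.185, adjusted p = 2.7e-05), an 11.8-fold lower signal under the KO label, with 2.96 log2 units between the closest arrays of the groups. Mmp9, the other gelatinase, had a log2 fold change of 0.25 (adjusted p = 0.085) and values of 5.02 to 5.51 over the 6 arrays. Mmp19, which cuts basement membrane proteins, had 5.28, 5.17 and 5.32 on the KO-labelled arrays, against 6.54, 7.21 and 7.76 on the WT-labelled arrays (log2 fold change -1.92, SE 0.287, adjusted p = 0.0022). The WT-labelled arrays of Mmp19 spread over 1.22 log2 units, and its other probe set gave -0.15 and was not called, at 4.14 and 4.29 near the nonspecific median. Mmp11, activated inside the cell by furin, was well above the nonspecific median on all arrays, with 10.03, 9.06 and 9.61 on the KO-labelled arrays and 8.69, 8.76 and 9.64 on the WT-labelled arrays. Its groups overlapped, and the log2 fold change of 0.54 (SE 0.336, adjusted p = 0.27) was not called.

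The other secreted MMPs measured were the 9 genes of the chromosome 9 cluster, and 0 of them were called, against 19.4% of all genes. They comprise the collagenases Mmp1a, Mmp1b, Mmp8 and Mmp13, the stromelysins Mmp3 and Mmp10, the macrophage elastase Mmp12, matrilysin Mmp7 and the enamel protease Mmp20. Over these genes the array values ran between 3.59 and 4.52 on the KO-labelled arrays and between 3.59 and 4.71 on the WT-labelled arrays, all within 0.65 log2 units of the nonspecific median. The log2 fold changes ran from -0.19 for Mmp10 to 0.13 for Mmp1b. The lowest adjusted p was 0.078 (Mmp10), and 1 of the 9 had an unadjusted p under 0.05. Mmp10 had 4.39, 4.48 and 4.46 on the KO-labelled arrays and 4.71, 4.57 and 4.60 on the WT-labelled arrays. Mmp13, the main collagenase of rodents, had 3.59, 3.73 and 3.63 on the KO-labelled arrays and 3.68, 3.70 and 3.59 on the WT-labelled arrays, so the groups overlapped. At values this close to background under both labels, a difference between low levels of these genes could go undetected. A member near background under 1 label only could be called, such as Adam12, with means of 4.08 (KO-labelled) and 7.15 (WT-labelled). Of the 11 cluster promoter windows, 8 hold both AP-1 letters and a TATA box. The AP-1 subunit genes are given with the other transcription factors below.

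Of the 5 membrane-type MMPs, 3 were lower (60%, against 10.1% of all genes) and 1 was higher (20%, against 9.27%). Mmp14, the membrane-type collagenase that activates the MMP2 proenzyme, had 8.64, 7.71 and 8.20 on the KO-labelled arrays, against 10.01, 9.84 and 10.45 on the WT-labelled arrays (log2 fold change -1.91, SE 0.263, adjusted p = 0.0015). It kept a clear signal on every array, and its second probe set gave -1.79. Mmp16, a close relative of Mmp14, had 4.66, 4.51 and 4.86 on the KO-labelled arrays, against 6.50, 6.44 and 6.25 on the WT-labelled arrays (log2 fold change -1.72, SE 0.114, adjusted p = 7.2e-05). The KO-labelled values lay near the nonspecific median, and the other 2 probe sets gave -1.34 (called) and -0.47 (not called). Mmp24, best known from neurons, where it cuts N-cadherin, had 6.64, 6.80 and 6.47 on the KO-labelled arrays, against 7.84, 7.80 and 7.84 on the WT-labelled arrays (log2 fold change -1.19, SE 0.0957, adjusted p = 0.00016). Its other 2 probe sets gave 0.04 and -0.06, and the mean of its 3 probe sets gave -0.40, which was not called. The 3 genes of the MMP2 activation pathway, Mmp2, Mmp14 and Timp2, were thus lower under the KO label by 3.56, 1.91 and 5.51 log2 units.

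Mmp17 went the other way. This enzyme is held in the membrane by a GPI anchor rather than a transmembrane stretch and is known to activate ADAMTS4 in cartilage. It had 8.06, 7.55 and 8.23 on the KO-labelled arrays, against 4.88, 5.15 and 4.94 on the WT-labelled arrays. The log2 fold change of 2.96 (SE 0.184, adjusted p = 5.5e-05) made it the only MMP called higher under the KO label of the 18 measured. Mmp23, which is cut free of the membrane by furin-type proteases, had a log2 fold change of 0.50 (adjusted p = 0.13), and its second probe set 0.57, below the 2-fold limit.

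**Figure D3:**
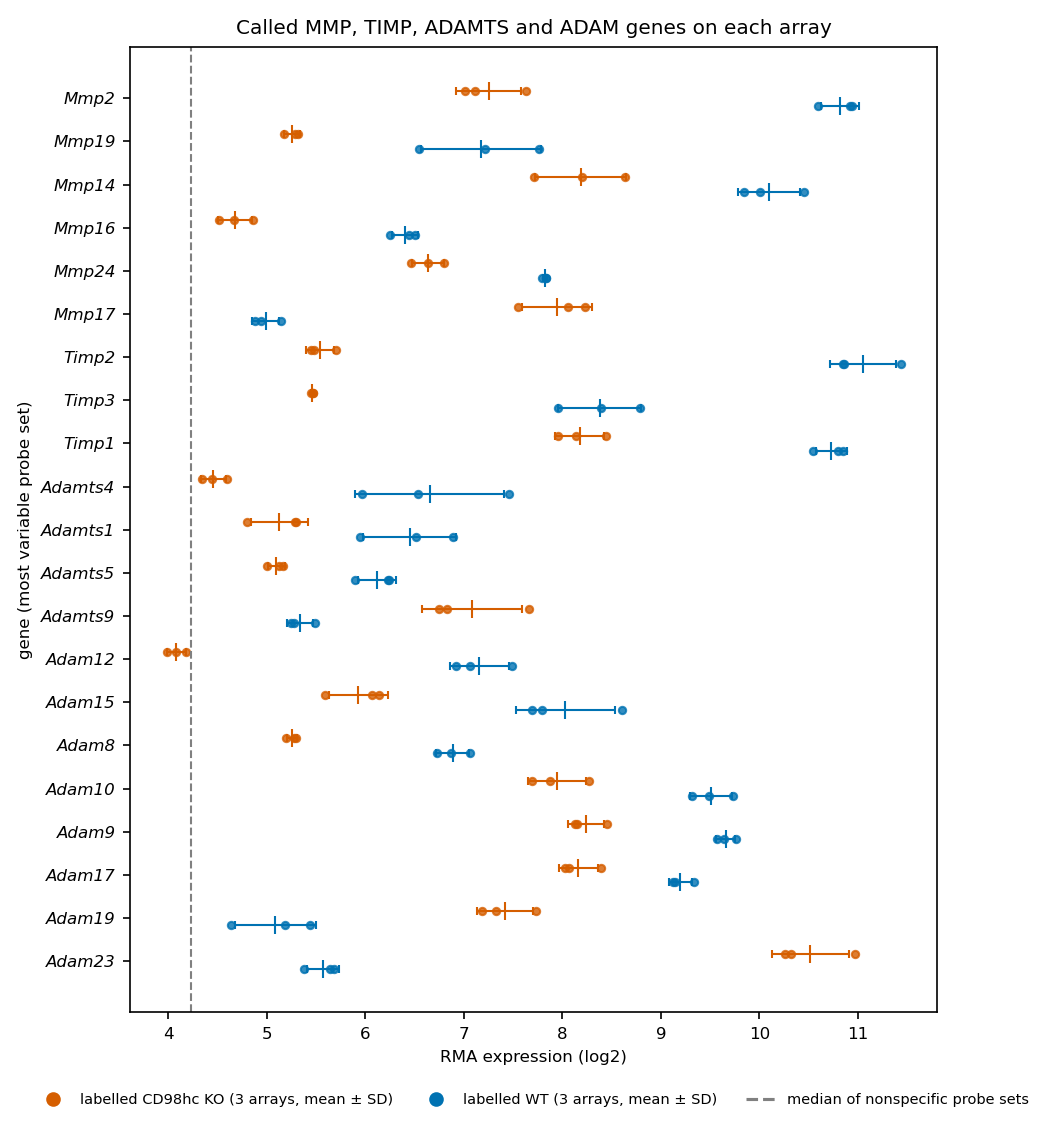
The x axis is the RMA log2 value and the y axis the 21 called member genes. Points are single arrays, 3 labelled CD98hc KO (orange) and 3 labelled WT (blue) per gene, with the mean as a tick and bars ± SD, and the dashed line is the median of nonspecific probe sets (4.23). Orange lies left of blue in 17 genes, most widely for Timp2, and right of it in Mmp17, Adamts9, Adam19 and Adam23.

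Among the 7 ADAMTS proteoglycanases, 3 were lower (42.9%, against 10.1% of all genes) and 1 higher (14.3%, against 9.27%). Adamts4, an aggrecanase of cartilage, had 4.34, 4.59 and 4.44 on the KO-labelled arrays, against 5.97, 6.53 and 7.46 on the WT-labelled arrays (log2 fold change -2.20, SE 0.355, adjusted p = 0.0031). The WT-labelled arrays differed by 1.49 log2 units among themselves, and the second probe set gave -1.68, also called. Adamts1, which cuts versican in the ovulating follicle and elsewhere, had 4.79, 5.28 and 5.30 on the KO-labelled arrays, against 6.51, 5.94 and 6.89 on the WT-labelled arrays (log2 fold change -1.32, SE 0.261, adjusted p = 0.0071). Adamts5, the main aggrecanase of mouse cartilage, had 5.00, 5.16 and 5.13 on the KO-labelled arrays, against 5.90, 6.23 and 6.24 on the WT-labelled arrays. Its log2 fold change of -1.03 (SE 0.113, adjusted p = 0.00057) was just past the limit, its other 3 probe sets gave -0.55, -0.68 and -0.04, and the fold fell short of 2 without KO replicate 1 (-0.98), WT replicate 3 (-0.97) or WT replicate 5 (-0.97).

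Adamts9, a versicanase of embryonic tissues, was higher, with 7.66, 6.83 and 6.75 on the KO-labelled arrays, against 5.28, 5.49 and 5.25 on the WT-labelled arrays (log2 fold change 1.74, SE 0.246, adjusted p = 0.0017). Its other 2 probe sets gave 0.10 and 0.25, and the mean of the 3 gave 0.70, which was not called. Adamts8 had a log2 fold change of 0.33 (adjusted p = 0.040) and was not called. Of the remaining ADAMTS genes, 0 of 7 were called, against 19.4% of all genes. Among them were Adamts7, an enzyme that cuts cartilage oligomeric matrix protein, at -0.75 (adjusted p = 0.047), Adamts6 at -0.43 (adjusted p = 0.019) and Adamts12 at -0.24 (adjusted p = 0.045). The 6 of them outside the procollagen N-proteinase family ranged from -0.75 to 0.01.

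**Figure D4:**
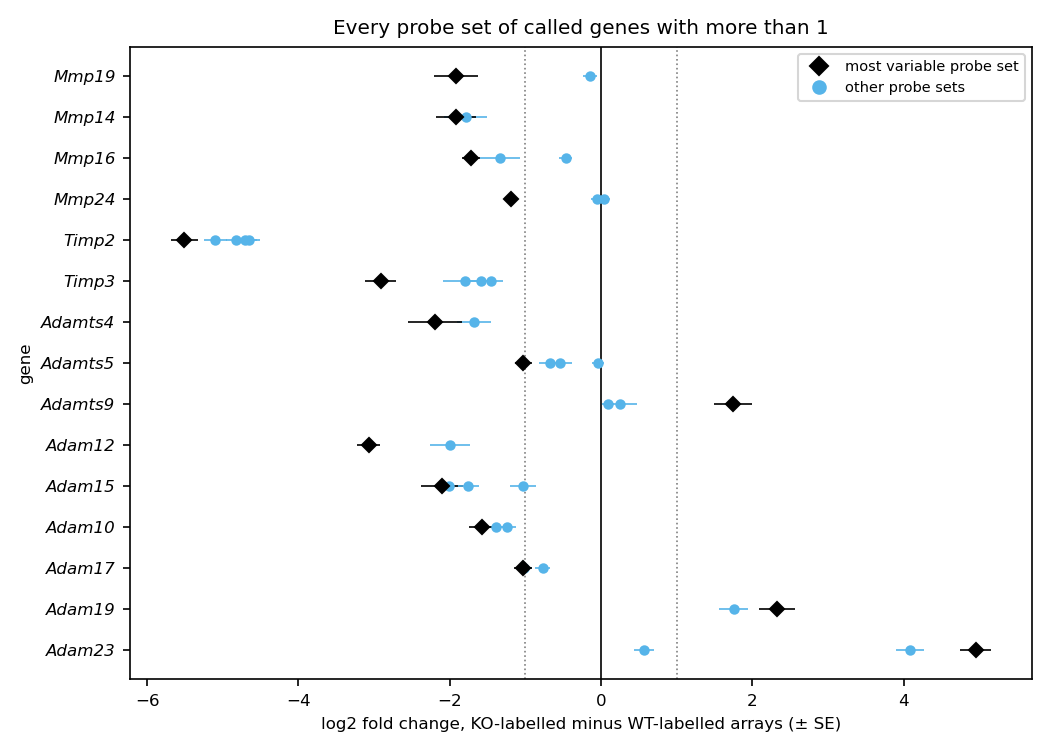
The x axis is the log2 fold change (KO-labelled minus WT-labelled arrays, bars ± SE) of every probe set of the called member genes that have more than 1, and the y axis names the gene. Black diamonds are the most variable probe set, which stands for the gene, and blue points the others. The 5 probe sets of Timp2 lie together between -5.51 and -4.66, while Mmp19, Mmp24, Adamts5 and Adamts9 each have a probe set near 0.

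The ADAM genes are given here by where they are known to act. Of the 9 sheddases of somatic tissue, 6 were lower (66.7%) and 1 higher (11.1%) under the KO label, with a median log2 fold change of -1.42. Over all genes 10.1% were lower and 9.27% higher. Adam12, a sheddase of heparin-binding EGF named meltrin alpha for its part in myoblast fusion, had 4.18, 3.99 and 4.07 on the KO-labelled arrays, against 7.49, 6.92 and 7.06 on the WT-labelled arrays. The log2 fold change was -3.07 (SE 0.155, adjusted p = 2.4e-05), the KO-labelled arrays were all below the nonspecific median, and the second probe set gave -2.00. Adam15, which carries an integrin-binding disintegrin domain, had 6.13, 5.59 and 6.07 on the KO-labelled arrays, against 7.79, 7.69 and 8.61 on the WT-labelled arrays (log2 fold change -2.10, SE 0.274, adjusted p = 0.0012). All 4 of its probe sets were called lower, from -2.10 to -1.04. Adam8, known mostly from leukocytes, had 5.28, 5.20 and 5.30 on the KO-labelled arrays, against 7.06, 6.87 and 6.73 on the WT-labelled arrays (log2 fold change -1.63, SE 0.0988, adjusted p = 4.9e-05). The macrophage and leukocyte markers, of which 0 of 8 were called, had summed levels of 8.03 to 8.42 on the KO-labelled arrays and 7.92 to 8.21 on the WT-labelled arrays.

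Adam10, the sheddase of Notch receptors, cadherins and the amyloid precursor protein, had 7.69, 8.27 and 7.88 on the KO-labelled arrays, against 9.31, 9.49 and 9.73 on the WT-labelled arrays (log2 fold change -1.57, SE 0.176, adjusted p = 0.00063). Its 3 probe sets were all called lower. Adam9, a widely expressed relative, averaged 8.24 ± 0.182 on the KO-labelled arrays and 9.66 ± 0.0965 on the WT-labelled arrays (SD, n = 3 each; log2 fold change -1.42, adjusted p = 0.00014 from limma). Adam17, the converting enzyme of tumour necrosis factor and of EGF receptor ligands, averaged 8.16 ± 0.198 on the KO-labelled arrays and 9.20 ± 0.116 on the WT-labelled arrays (SD, n = 3 each; log2 fold change -1.04, adjusted p = 0.00073 from limma). Adam17 was close to the 2-fold limit, and its fold fell short of 2 without KO replicate 1 (-0.99), KO replicate 5 (-0.97) or WT replicate 3 (-0.97). Adam19, called meltrin beta and known for its part in heart valve formation, was higher, with 7.73, 7.18 and 7.33 on the KO-labelled arrays, against 5.44, 4.64 and 5.19 on the WT-labelled arrays (log2 fold change 2.33, SE 0.235, adjusted p = 0.0004). Its second probe set gave 1.75 and was also called. Adam28 and Adam33 had log2 fold changes of -0.05 and 0.21 and were not called.

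Adam23 had the highest log2 fold change of all members. It belongs, with Adam11 and Adam22, to the ADAMs that lack the residues of a working protease site and serve in neurons as receptors of LGI proteins. It had 10.97, 10.32 and 10.26 on the KO-labelled arrays, against 5.64, 5.38 and 5.68 on the WT-labelled arrays, a log2 fold change of 4.95 (SE 0.202, adjusted p = 1.1e-05) or 30.9-fold. A second probe set gave 4.08 and was called, and the third gave 0.57 and was not. The relatives moved less, with Adam11 at 0.80 (adjusted p = 0.023) and Adam22 at 0.65 (adjusted p = 0.0008), both short of the 2-fold limit but with groups that did not overlap. Of 5 neural markers 2 were higher and 1 lower under the KO label, and their summed level lay between 9.72 and 10.05 on the KO-labelled arrays and between 8.96 and 9.73 on the WT-labelled arrays. Their part in the Adam23 value was not tested.

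The 14 measured ADAMs of testis and epididymis, which include the sperm surface proteins of the fertilin family, were called in 0 cases, against 19.4% of all genes. Their values ran from 3.56 to 5.75 over all arrays, and their log2 fold changes from -0.13 to 0.19. For 4 of the 14 (28.6%, against 8.87% of all genes) both group means were below the nonspecific median. At signals this low a difference could go undetected, so the 0 calls do not set these genes apart from the somatic ADAMs. Among the 7 markers of male germ cells, Ddx4, which is expressed in early germ cells, was the 1 gene called (log2 fold change 3.19).

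Spread between arrays was similar in members and in all genes. The median SD over the 61 members was 0.117 on the KO-labelled and 0.129 on the WT-labelled arrays, against 0.139 and 0.137 over all genes. Within the WT label, replicate 5 was the highest array in 10 of the 17 members called lower, replicate 1 in 5 and replicate 3 in 2. Replicate 5 was also the highest WT-labelled array in 43.9% of all genes called lower.

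Genes that work with the metalloproteinases were read from the same fit. Of 20 activators and surface cofactors, 3 were higher and 10 lower, with a median log2 fold change of -0.99. Over all genes 9.27% were called higher and 10.1% lower. The 4 with the largest changes were all lower under the KO label: Cd44, a hyaluronan receptor that docks MMP9 and MMP14, at -7.01, Cav1, the caveolin of surface caveolae, at -6.66, Ddr2, a collagen receptor that induces MMPs, at -4.98, and Plat, the tissue plasminogen activator, at -3.57. Cd44 and Cav1 averaged 4.21 and 4.16 on the KO-labelled arrays, below the nonspecific median of 4.23, so the size of their changes, and their order, rest on a signal not above background. Of 13 genes on a list of inhibitors and clearance receptors other than TIMPs, 2 were higher and 4 lower (median -0.04). The list also holds cofactors and enhancers, so these are not counts of inhibitors. Fbln1, a cofactor of ADAMTS1, rose by 3.97 and Spock2, a testican proteoglycan, by 3.31, whereas Lrp1, the endocytic receptor that clears MMPs and TIMPs, fell by 2.92 and Pcolce, the enhancer of procollagen C-proteinases, fell by 2.31. Of 6 ADAMTS-like proteins, which share the ancillary domains without the protease, 0 were higher and 2 lower, Adamtsl3 at -4.69 and Adamtsl4 at -2.10. Of 8 partners of ADAM10 and ADAM17, 1 was higher (Tspan33, at 1.17) and 3 lower: Rhbdf1, an iRhom that carries ADAM17 out of the endoplasmic reticulum, at -2.71, and the ADAM10 tetraspanins Tspan5 at -1.13 and Tspan15 at -1.09.

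Substrates and transcription factors were in part lower too. Of 24 ligands and receptors shed by ADAMs, 2 were higher and 10 lower (median -0.40), with Cd44 at -7.01, Cdh1, the epithelial cadherin, at 5.23, App at -3.67 and Sdc4 at -2.95. Of 20 matrix substrates, 2 were higher and 9 lower (median -0.52), led by Col3a1 at -6.89, Bgn at -6.52, Col1a1 at -5.72 and Col4a2 at -3.42. Of 15 transcription factors known from metalloproteinase promoters, 2 were higher and 9 lower (median -1.96). Ets1 had 4.07, 4.12 and 4.38 on the KO-labelled arrays, against 9.13, 9.47 and 9.15 on the WT-labelled arrays (log2 fold change -5.06, adjusted p = 2.1e-06). Fosl1, a subunit of AP-1, had 4.55, 4.42 and 4.30 on the KO-labelled arrays, against 10.04, 9.39 and 8.98 on the WT-labelled arrays (log2 fold change -5.05, adjusted p = 2.6e-05). Both lay near background under the KO label and well above it under the WT label. Fosl2, another AP-1 subunit, was lower by 3.76 and Runx1 by 3.63 (log2 fold changes -3.76 and -3.63). Of the other AP-1 subunits on the list, Jun (-3.47) and Junb (-1.07) were lower, while Fos (-1.96, adjusted p = 0.058), Fosb (-1.97, adjusted p = 0.073) and Jund (-0.46, adjusted p = 0.088) were not called. The Mmp cluster genes, of which 8 of the 9 measured hold AP-1 letters in a promoter window, were near background under both labels. What the AP-1 subunits do at these genes was not tested. Of 8 growth factors and cytokines upstream, 1 was called, Tgfb3 at -3.28. Across all genes 19.4% were called, 9.27% higher and 10.1% lower, with a median of 0.0183. The lists overlap, since Cd44 is in both the cofactor and the shed list, Cdh1 is also an epithelial marker and Col1a1 and Col3a1 are also fibroblast markers.

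**Figure D5:**
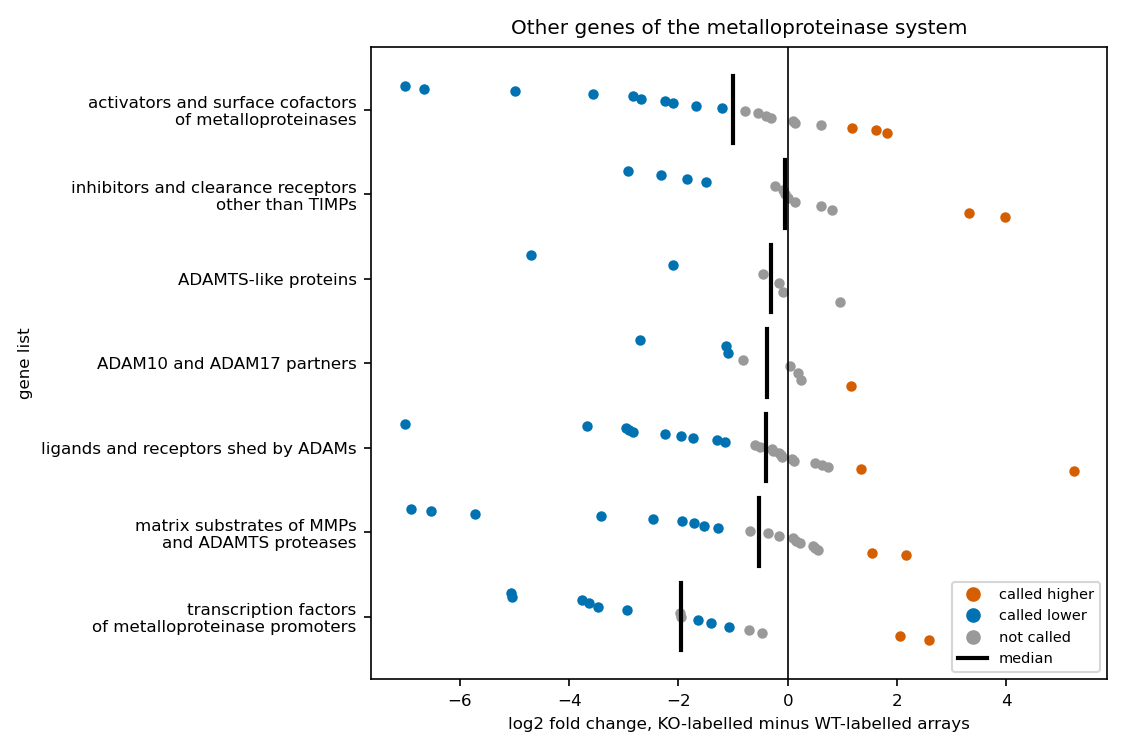
The x axis is the log2 fold change (KO-labelled minus WT-labelled arrays) of each measured gene of 7 lists of metalloproteinase partners, named on the y axis, with points coloured by call and a bar at each list's median. In every list the median is below 0, from -1.96 for the transcription factors to -0.04 for the list of inhibitors and clearance receptors. That list also holds cofactors and enhancers. Called genes lie on both sides in all lists except the ADAMTS-like proteins, where 2 are lower.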

How the data were processed

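RNA of 3 samples labelled CD98hc KO and 3 labelled WT had been amplified and hybridised to Affymetrix mouse genome arrays. The deposited values are log2 expression estimates of probe sets. To make them the authors used RMA in affyPLM, which corrects background, normalises the arrays to each other and combines the probes of a set. They were used as deposited, with array medians between 5.62 and 5.71. Probe sets were named from the platform annotation (28898 with 1 symbol, 551 with several, 15692 unnamed here), of which 28689 matched RefSeq by gene identifier. All probe sets were fitted together with lmFit and eBayes (limma 3.58.1 in R 4.3.3) for the difference of KO-labelled from WT-labelled arrays, and each gene was read from its most variable probe set, as in the study's methods. Variability was taken over all arrays, so the choice favours probe sets with a large difference between the labels. The mean of probe sets, given below, makes no such choice. P-values were Benjamini-Hochberg adjusted over 17097 genes. The study's model had a scan batch, which the sources used here do not give, so the fit had no covariate. An exact permutation test of 3 against 3 arrays cannot go below p = 0.1, so none was run.

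Values on every array were given for the CD98hc gene, the TIMPs, called MMPs, called ADAMTS genes and the 6 called ADAMs with the largest changes. Other called members, and uncalled members that complete a role, were named with fewer values. At most 4 called genes were named from each other list, and the single cell type markers and the AP-1 subunits Jun, Junb, Fos, Fosb and Jund were chosen after their values were seen. Members and lists were chosen with earlier results of these data known. On simulated data of the same comparison over 17097 genes, 85 of 100 genes changed by 1.5 log2 units, 99 of 100 changed by 3 and 1 of 16897 unchanged genes were called. In that simulation few genes were changed and the noise was drawn independently for each value. In the data 41.9% of genes had adjusted p under 0.05, so these rates need not hold for them. Motifs were searched and figures drawn in Python 3.11.15 with matplotlib 3.10.9. Promoter sequences are from RefSeq (GRCm38.p6).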

Additional observations from a re-analysis of the deposited data

How the results depend on the processing

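Counts of called members kept within 1.5 times of the 21 found (4 higher, 17 lower) under all settings tried, except that 7 were higher with no fold limit, where 27 were called against 41.9% of all genes. The count was 21 with the replicate 3 arrays as a covariate, without them, with all probe sets adjusted together and with arrays centred on their medians. It was also 21 with a filter that left 50 members and with trend and robust eBayes. Under these settings 19% to 21.2% of all genes were called, against 19.4% in the main fit. Quantile normalisation gave 20 (Adam17 lost), the brightest probe set 19 (Adam17 and Adamts5 lost) and the mean of probe sets 17 (Adam17, Adamts5, Adamts9 and Mmp24 lost). The share of all genes called fell as well, to 19.3%, 17.1% and 15.7%, so the lower counts are not particular to the members. Leaving out 1 array gave 19 to 21 called, 4 higher and 15 to 17 lower, and only Adam17 and Adamts5 were lost. Then 18.7% to 19.9% of all genes were called. Deviations from the group means correlated at 0.057, 0.558 and 0.152 between arrays numbered 1, 3 and 5, so the numbers were not taken to pair the arrays. With the replicate block 21 members were called, 4 higher and 17 lower, the same genes as without it, and 19.5% of all genes were called.

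None of the 21 called members changed direction under any of these settings. Over all 61 members, uncalled ones included, the sign changed in up to 7 genes when 1 array was left out, in 13 with arrays centred on their medians and in 0 to 4 under the other settings. Among uncalled members named singly, the sign changed in 4 cluster genes near background. Mmp13 was -0.0035 and became 0.0036 after quantile normalisation, and ran from -0.0413 to 0.0238 when 1 array was left out. Mmp1a was 0.0164 and became -0.0601 with arrays centred on their medians and -0.0267 without replicate 3, and ran from -0.047 to 0.0535 when 1 array was left out. With arrays centred on their medians, which moved the median of all genes to -0.0583, Mmp20 became -0.0234 and Mmp7 -0.035. Of 667 values of Slc3a2 and the members named singly under the alternatives 640 kept their side of the threshold and direction, 13 lost the call, 3 gained it (Slc3a2) and 11 changed sign. The cause of these changes was not tested. With no detection calls used, values near the nonspecific median give no order between genes.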
